A study of Homo sapiens with 15 samples.

Results

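FAR2, ERGIC2 and TMTC1 are neighbouring genes on the short arm of chromosome 12, and they make up 3 of the 12147 genes measured above the filter in this series. They were picked because FAR2 and TMTC1 were strongly lower in clones C#3 and C#6 of these same arrays. Their own values are therefore given as a description, without a test. A label of "loss" for the whole stretch does not match the measured levels. The 95% interval of the log2 change of ERGIC2, which lies between FAR2 and TMTC1, reached no lower than -0.37 in C#3 and -0.23 in C#6. The arrays measured RNA, so the number of gene copies was not measured.

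The groups were parental BT474, a HER2-amplified human breast cancer cell line, and 4 clones of it that resist T-DM1. This drug, trastuzumab emtansine, couples a HER2 antibody to a microtubule poison. Each clone, named C#1, C#2, C#3 or C#6, grew from 1 cell after long exposure to the drug and was held in 5 nM T-DM1 for 3 months. The labels do not say if T-DM1 was still in the medium when RNA was taken. Every group had 3 arrays, called biological replicates in the labels, and each clone was set against the same 3 parental arrays. Where 4 values follow each other without names, they are in the order C#1, C#2, C#3, C#6. Resistance, cloning from 1 cell and culture in the drug cannot be told apart, because no sensitive clone was measured.

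FAR2 is a fatty acyl-CoA reductase of peroxisomes. It turns long-chain acyl-CoA into fatty alcohols, which are built into wax esters and, together with the product of its paralog FAR1, into ether lipids such as plasmalogens. TMTC1 is a membrane protein of the endoplasmic reticulum from the family of transferases that add mannose to serine or threonine of cadherins, a modification separate from the classical protein O-mannosylation of dystroglycan. ERGIC2 cycles between the endoplasmic reticulum, the intermediate compartment and the Golgi apparatus, and it works with ERGIC1 and ERGIC3 in carrying cargo through the early secretory pathway.

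The stretches just before the transcription start of the 3 genes are shown because FAR2 and TMTC1 were both low in C#3 and C#6 and ERGIC2 was not. They come from RefSeq on GRCh38.p14, in which all 3 genes had an entry. Each is 250 bases long and ends at the outermost annotated start. They are written 5′ to 3′ on the strand of the gene, and capitals mark the GC box GGGCGG or its reverse complement CCGCCC. FAR2 is at chr12:29149028-29149277 on the plus strand, ERGIC2 at chr12:29381173-29381422 on the minus strand and TMTC1 at chr12:29784760-29785009 on the minus strand.
FAR2: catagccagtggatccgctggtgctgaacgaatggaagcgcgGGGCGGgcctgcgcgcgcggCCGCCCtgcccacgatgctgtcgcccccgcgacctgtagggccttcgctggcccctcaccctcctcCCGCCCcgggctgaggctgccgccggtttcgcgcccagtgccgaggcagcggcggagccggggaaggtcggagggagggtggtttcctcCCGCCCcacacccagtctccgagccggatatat
ERGIC2: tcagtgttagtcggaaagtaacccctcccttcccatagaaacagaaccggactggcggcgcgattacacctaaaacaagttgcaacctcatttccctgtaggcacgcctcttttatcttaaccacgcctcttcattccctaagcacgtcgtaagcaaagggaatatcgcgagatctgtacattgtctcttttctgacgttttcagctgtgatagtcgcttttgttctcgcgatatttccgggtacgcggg
TMTC1: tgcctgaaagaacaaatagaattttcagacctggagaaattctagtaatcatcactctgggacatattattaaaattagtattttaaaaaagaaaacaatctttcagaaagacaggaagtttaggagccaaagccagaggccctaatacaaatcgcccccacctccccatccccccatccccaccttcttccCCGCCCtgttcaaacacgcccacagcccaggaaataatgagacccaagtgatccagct
The FAR2 stretch had a GC content of 72.8%, 29 CG dinucleotides and 4 GC boxes. That number of CG dinucleotides was at percentile 85.9 of the 35116 RefSeq stretches of the same length, whose median was 11. ERGIC2 had 18 CG dinucleotides (percentile 63.2) and a GC content of 48.4%, with 0 GC boxes. TMTC1 had 3 CG dinucleotides (percentile 22.9), a GC content of 44.0% and 1 GC box. A GC box on either strand was present in 42.6% of all such stretches. The letters CCAAT (32.0% of all stretches, both strands) and TATAAA (10.7%, both strands) were in none of the 3 printed stretches, and none of these motifs contains another. FAR2 and TMTC1 each have a further annotated start inside the gene. For TMTC1, the 250 bases before it (chr12:29783943-29784192) had 28 CG dinucleotides (percentile 84.1), 2 GC boxes and 1 CCAAT. For FAR2, those bases (chr12:29223416-29223665) had 2 CG dinucleotides (percentile 14.7). The 2 genes that were low together therefore had unlike sequence at the outermost start, and which start was used in these cells was not measured.

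FAR2, the reductase, was near the parental level in C#1 and C#2 and far below it in C#3 and C#6. On the log2 scale the parental arrays read 7.60, 7.50 and 7.35, or 7.48 ± 0.12 (SD, n = 3). C#1 read 7.42, 7.66 and 7.59, and C#2 read 7.38, 7.57 and 7.31. Both clones overlapped the parental arrays, with changes of 0.08 and -0.06 (SE 0.13). C#3 read 4.87, 4.44 and 4.44 (4.58 ± 0.25), and C#6 read 3.94, 3.95 and 4.11 (4.0 ± 0.09). All 6 of these arrays lay more than 2 log2 units below every other array. The change was -2.90 in C#3 (95% interval -3.17 to -2.63), a 7.45-fold lower level, and -3.48 in C#6 (-3.75 to -3.21), an 11.2-fold lower level. The 2 low clones also differed from each other: the highest C#6 array was below the lowest C#3 array, and their means were 0.58 apart against a pooled SD of 0.19. In order from high to low the groups were C#1, parental, C#2, C#3 and C#6, with overlap among the first 3 only.

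TMTC1, the mannosyltransferase, was lower than parental in all 4 clones, in 2 steps of size. Parental arrays read 7.45, 7.31 and 7.34, or 7.37 ± 0.07 (SD, n = 3, log2). C#1 read 6.43, 6.57 and 6.30 (6.43 ± 0.13), and C#2 read 6.79, 6.62 and 6.59 (6.67 ± 0.11). None of these 6 arrays reached the lowest parental array. The changes were -0.94 in C#1 and -0.70 in C#2 (SE 0.15), a level 1.91-fold and 1.63-fold lower. C#3 read 4.28, 4.12 and 4.75 (4.38 ± 0.33), and C#6 read 4.93, 4.71 and 4.39 (4.68 ± 0.27). These arrays lay below all those of C#1 and C#2, and those of C#3 overlapped those of C#6. The change was -2.99 in C#3 (95% interval -3.31 to -2.66), or 7.92-fold lower, and -2.69 in C#6 (-3.02 to -2.37), or 6.46-fold lower. From high to low the groups were parental, C#2, C#1, C#6 and C#3. C#2 and C#1 did not overlap, though their means were only 0.23 apart, and the difference of 0.29 between C#6 and C#3 was within their pooled SD of 0.30. The clone with the lowest FAR2 was C#6, and the one with the lowest TMTC1 mean was C#3.

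ERGIC2, the cargo carrier between these 2 genes, stayed within 0.16 log2 units of parental in each clone. Parental arrays read 9.84, 9.95 and 9.88 (9.89 ± 0.06, SD, n = 3, log2). C#1 read 9.72, 9.64 and 9.97, C#2 read 9.66, 9.77 and 9.75, C#3 read 9.75, 9.97 and 9.56, and C#6 read 9.93, 9.81 and 9.93. Only the C#2 arrays were all below the parental arrays, and each pair of neighbours in the order of group means overlapped. The changes were -0.11 in C#1 (95% interval -0.35 to 0.13), -0.16 in C#2 (-0.40 to 0.08), -0.13 in C#3 (-0.37 to 0.11) and 0.00 in C#6 (-0.23 to 0.24). As a ratio to parental, the interval ran from 0.776 to 1.08 in C#3 and from 0.85 to 1.18 in C#6. Each of the 3 members had 1 probe set with a symbol, so no second probe set could be set beside it.

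**Figure D1:**
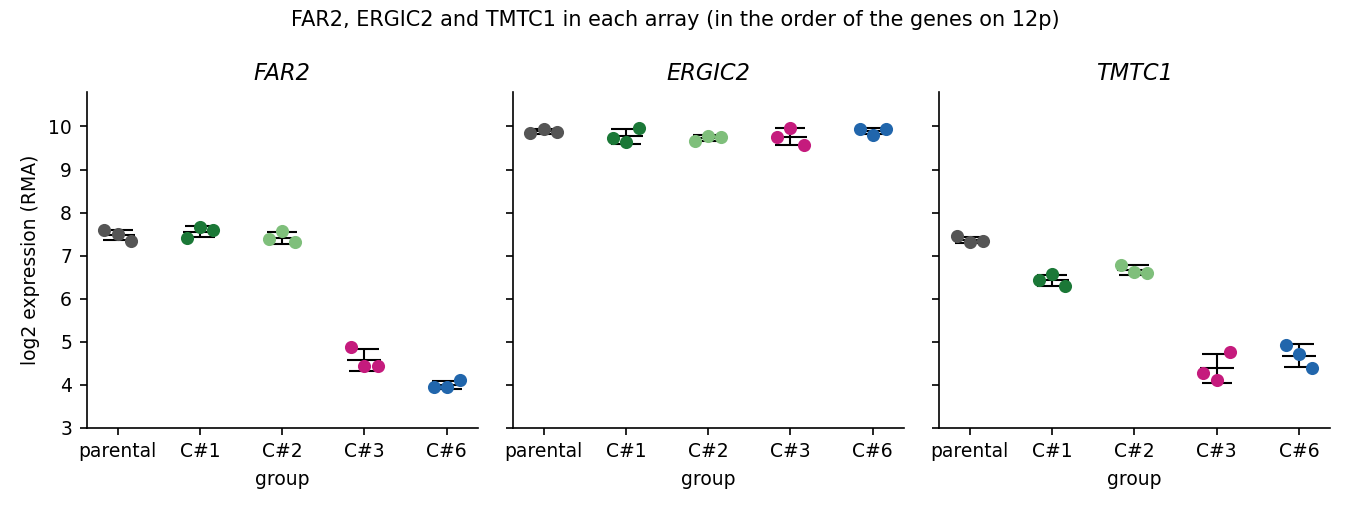
RMA log2 level of FAR2, ERGIC2 and TMTC1 on each of the 15 arrays, by group; points are arrays, and bars are the group mean with SD (n = 3). The FAR2 mean was 7.48 in parental cells, 4.58 in C#3 and 4.0 in C#6, that of TMTC1 was 7.37, 4.38 and 4.68, and ERGIC2 stayed between 9.73 and 9.89 in all groups.

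Taking the difference of 2 members within each array removes whatever shifts a whole array. Relative to ERGIC2, FAR2 changed by 0.19 in C#1, 0.10 in C#2, -2.77 in C#3 and -3.48 in C#6 (log2; SD of the arrays of a clone 0.21, 0.13, 0.33 and 0.08). TMTC1 relative to ERGIC2 changed by -0.82, -0.54, -2.86 and -2.70 (SD 0.30, 0.17, 0.52 and 0.29). FAR2 relative to TMTC1 changed by 1.01 in C#1, 0.64 in C#2, 0.09 in C#3 and -0.79 in C#6 (SD 0.15, 0.19, 0.46 and 0.36). The pair thus did not keep 1 ratio across the clones. In C#1 and C#2 the separation lay in TMTC1. In C#6 the measured FAR2 fell further than TMTC1, but both were low there, where the log2 scale of RMA is compressed. The size of that separation is therefore uncertain.

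The place of each member among all probe sets of its array gives a sense of how low the levels reached. FAR2 was at percentile 86.5 to 88.3 on the parental arrays, 56.5 to 63.3 in C#3 and 47.0 to 51.5 in C#6. TMTC1 went from percentile 86.4 to 87.4 in parental cells to 79.0 to 81.3 in C#1, 81.6 to 83.4 in C#2, 51.5 to 61.3 in C#3 and 56.4 to 63.9 in C#6. ERGIC2 was at percentile 97.0 to 97.7 on every array. The filter for measured genes was the 40th percentile, so both low genes still passed it in C#3 and C#6. Near the background the log2 scale of RMA is compressed, so the folds of the 2 genes in these clones may understate the change. In bulk RNA, fewer cells with the transcript and less transcript in each cell cannot be told apart.

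Among all 12147 genes, those with a change at or below -2 (a 4-fold lower level) numbered 14 in C#1, 12 in C#2, 12 in C#3 and 19 in C#6. In C#3, TMTC1 was at rank 2 and FAR2 at rank 3 from the lowest change, and in C#6 FAR2 was at rank 2 and TMTC1 at rank 8. TMTC1 was at rank 122 in C#1 and rank 387 in C#2. The median change over all genes was -0.02, -0.02, 0.00 and -0.02 in the 4 clones.

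The labelled breast line was checked against marker genes. All 13 luminal breast epithelial markers with a symbol, of 14 listed, passed the filter, with levels from 5.18 to 12.62 (log2). Some of them were lower in the clones: GATA3 had a mean of 9.12 in parental cells and of 6.23, 5.98, 8.36 and 6.77 in the clones, AGR2 of 7.55 and then 6.31, 6.38, 7.49 and 6.77, and ESR1 of 8.35 and then 7.51, 7.74, 7.92 and 7.80. GRB7 went from 10.36 to 10.31, 10.15, 9.5 and 9.31, and was thus lowest in C#3 and C#6. Others were higher in each clone. TFF1 went from 10.81 to 11.51, 11.97, 11.4 and 12.32, and EPCAM from 10.33 to 10.66, 10.61, 10.57 and 10.83. The part of these differences in the results was not tested. Fibroblast markers lay at 2.49 to 3.05, with 0 of the 2 that had a symbol passing. The 1 leukocyte marker with a symbol was at 3.33 to 3.94 and passed the filter. The 3 endothelial markers with a symbol were at 2.55 to 4.17, with 1 passing. The upper quartile of all probe sets was 5.80 to 5.96 over the 15 arrays. HER2 itself (ERBB2) was not analysed here.

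The genes around the members were then tested, to see how far along the chromosome the low levels reached. The test was limma with 1 mean per group over all 15 arrays, Benjamini-Hochberg adjustment over the 12147 genes of each comparison, and a call at an adjusted p below 0.05. Of all genes, 11.2% were called lower in C#1, 11.5% in C#2, 11.0% in C#3 and 14.7% in C#6, and 6.03%, 5.47%, 6.22% and 7.73% were called higher. Without parental replicate 3 the lower calls went from 1359 to 808 in C#1, from 1394 to 889 in C#2 and from 1334 to 855 in C#3, and the higher calls from 733 to 421, from 664 to 376 and from 756 to 420. The higher calls in C#6 went from 939 to 602 without parental replicate 2. Lower calls were 65.0%, 67.7%, 63.8% and 65.5% of all calls, and after renewed quantile normalization 52.1%, 52.2%, 50.3% and 49.7%, so the excess of lower calls depended on the scaling. P-values measure the spread between arrays of 1 clone, not between clones raised in the same way.

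The nearest measured genes outside the stretch did not follow FAR2 and TMTC1. CCDC91, a coiled-coil protein of Golgi transport and the nearest measured gene on the FAR2 side, read 5.08, 4.98 and 5.03 in parental cells, 4.96, 4.94 and 4.85 in C#3 and 4.75, 4.69 and 4.66 in C#6. Its change was -0.12 in C#3 (SE 0.12, adjusted p = 0.572) and -0.33 in C#6 (adjusted p = 0.0556). IPO8, a nuclear import receptor and the nearest on the TMTC1 side, read 7.84, 7.98 and 7.90 in parental cells, 7.82, 7.74 and 7.78 in C#3 and 7.54, 7.44 and 7.61 in C#6. It was called lower only in C#6, by a change of -0.38 (SE 0.09, adjusted p = 0.00863), and in C#3 its change was -0.13 (adjusted p = 0.4). All 3 C#6 arrays of both genes were below the parental ones, but neither change came near that of FAR2. RefSeq lists 6 genes from FAR2 to TMTC1, 4 of them protein coding, and no measured gene other than ERGIC2 lay between them.

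**Figure D2:**
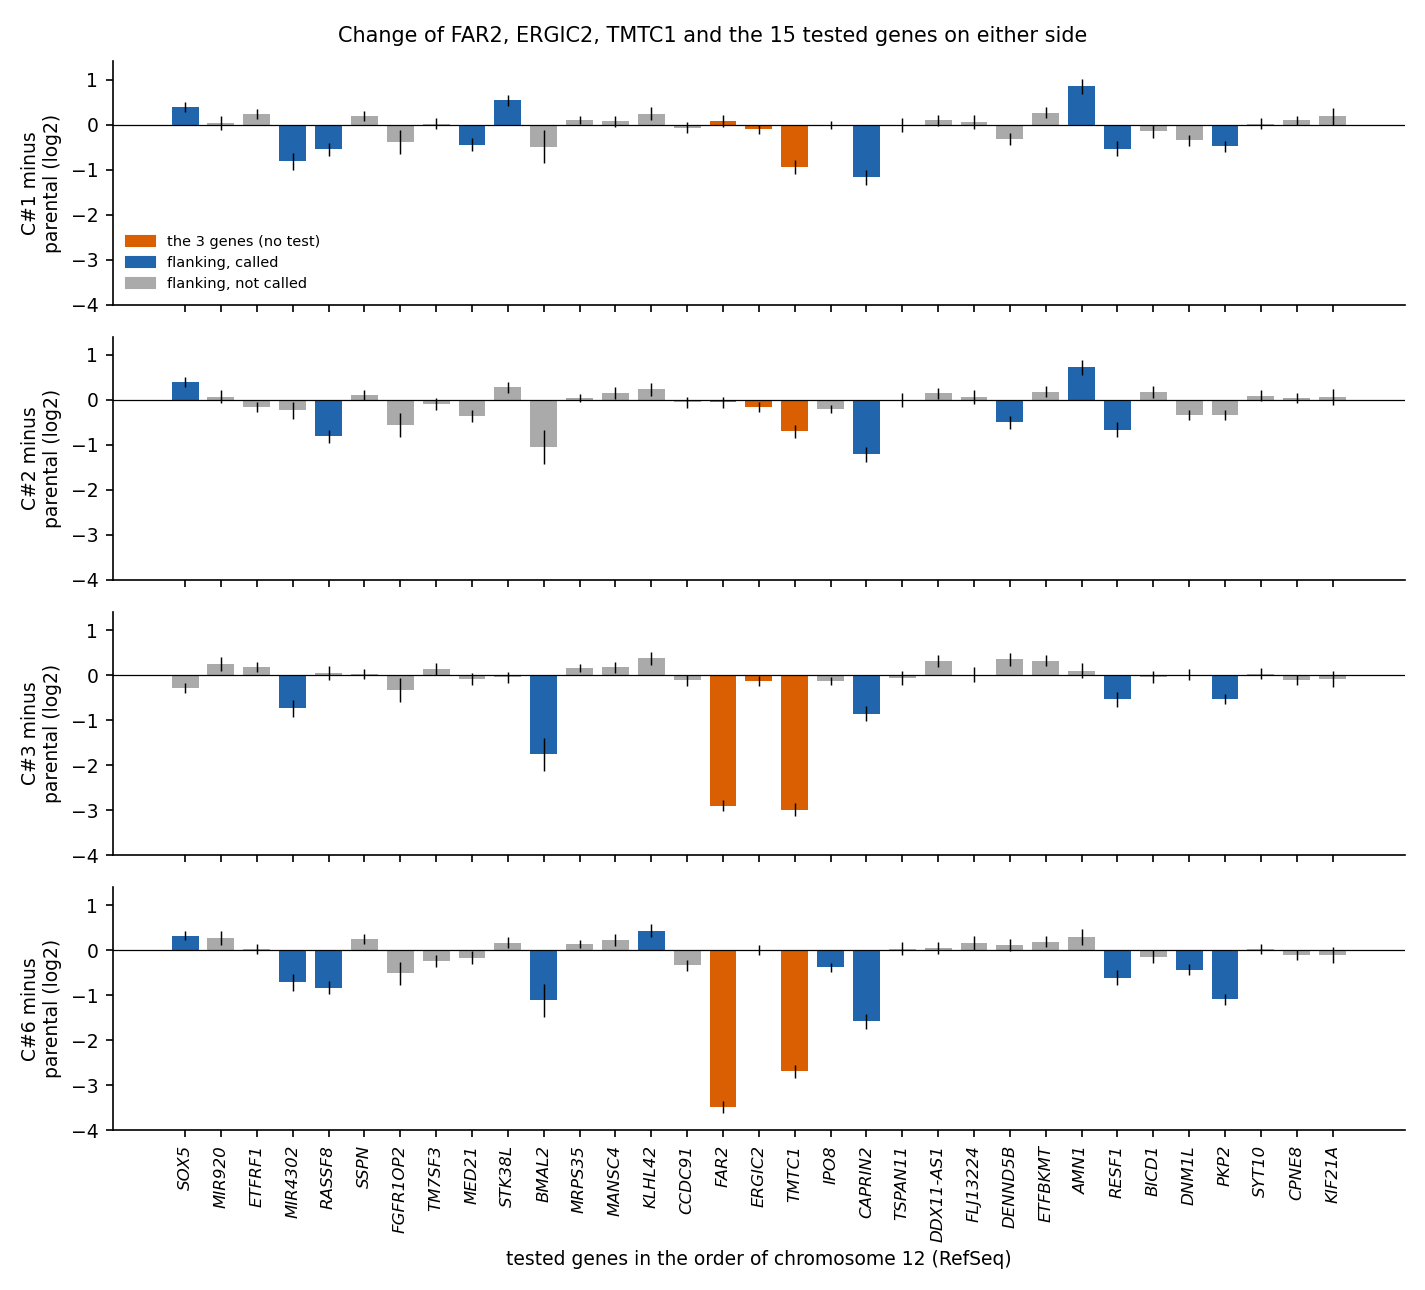
Log2 change against parental in each clone of the 15 measured genes on either side, with FAR2, ERGIC2 and TMTC1 between them, in chromosome order and evenly spaced. Bars are changes with their SE; orange marks the 3 genes, blue a flanking gene called at an adjusted p below 0.05, grey one not called. FAR2 and TMTC1 drop to between -3.48 and -2.69 in C#3 and C#6, while ERGIC2, CCDC91 and IPO8 beside them stay between -0.38 and 0.00.

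Of the 30 flanking genes, 15 on each side, 5 were called lower and 0 higher in C#3, and 8 lower and 2 higher in C#6. After renewed quantile normalization these counts were 4 lower and 2 higher in C#3, and 7 lower and 1 higher in C#6. Over all 12147 genes that setting gave 1046 lower and 1032 higher in C#3, and 1314 lower and 1330 higher in C#6. At an unadjusted p below 0.05 in limma, 4 flanking genes were higher in C#3. The share of all genes at that threshold was not counted. The flanking genes called in C#1 were 6 lower and 3 higher, and in C#2 they were 4 and 2. The share called lower was 16.7% in C#3 and 26.7% in C#6, beside 11.0% and 14.7% over all genes. Over the measured genes of chromosome 12 it was 12.7% and 26.0%. The median change of the 30 genes was 0.02, 0.02, -0.02 and -0.03. The neighbourhood as a group was thus centred on no change in the 4 clones. Some of its genes had little room to fall. MANSC4, SSPN and SOX5, for example, had parental means of 3.39, 3.43 and 3.50, below the filter level of 3.56 to 3.62. The number of called genes in either direction, 9 in C#1, 6 in C#2, 5 in C#3 and 10 in C#6, was 5 in C#1 without parental replicate 1 or 3, 3 in C#2 without parental replicate 3, 3 in C#3 without parental replicate 2 or C#3 replicate 1, and 5 in C#6 without parental replicate 3. It was 6 in C#6 without parental replicate 2 or C#6 replicate 2.

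In C#1, C#2 and C#6, though not in C#3, no flanking gene fell further than CAPRIN2, an RNA-binding protein just beyond IPO8. It was called lower in each clone. It read 5.64, 5.67 and 5.69 in parental cells, 4.27, 4.63 and 4.59 in C#1, 4.51, 4.55 and 4.29 in C#2, 4.74, 5.13 and 4.56 in C#3, and 3.69, 4.39 and 4.18 in C#6. No clone array reached the parental range. The changes were -1.17, -1.21, -0.86 and -1.58 (SE 0.17), with the highest adjusted p of 0.00236 in C#3. Unlike FAR2, CAPRIN2 was thus also low in C#1 and C#2. BMAL2, a circadian clock transcription factor on the FAR2 side, was called lower in C#3, with a change of -1.76 (SE 0.37, adjusted p = 0.00349), and in C#6, with -1.11 (adjusted p = 0.0406). Its arrays spread widely, at 4.53, 5.41 and 5.11 in C#3 and 4.69, 6.22 and 6.11 in C#6, against 6.56, 6.83 and 6.94 in parental cells. The C#6 call was lost without any 1 of the 3 parental arrays or without C#6 replicate 1, where the change was -1.21 to -0.61. It was also lost after renewed quantile normalization and with trend and robust settings of eBayes.

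The other called flanking genes moved by about 1 log2 unit or less. PKP2, the desmosomal protein plakophilin 2, fell in 3 clones, with changes of -0.48 in C#1, -0.53 in C#3 and -1.09 in C#6 (SE 0.12, highest adjusted p = 0.00863), and its change in C#2 was -0.34. RASSF8, a Ras-association domain protein, fell in 3 clones, with changes of -0.55 in C#1, -0.81 in C#2 and -0.83 in C#6 (SE 0.15), beside 0.05 in C#3 (the C#1 call was lost without any 1 parental array or C#1 replicate 1, at -0.55 to -0.51). RESF1, a factor in the silencing of retroelements, fell in each clone, with changes of -0.54, -0.66, -0.54 and -0.61 (SE 0.17). Each of its 4 calls was lost when parental replicate 3 or some other arrays of its comparison were left out, with changes from -0.61 to -0.39, and those in C#1 and C#3 also after renewed quantile normalization. The microRNA gene MIR4302 fell in 3 clones, with changes of -0.82 in C#1, -0.74 in C#3 and -0.71 in C#6 (SE 0.19). Its means of 3.98, 4.06 and 4.1 in these clones were not far above the filter level of 3.56 to 3.62. The C#3 and C#6 calls were lost without parental replicate 2, C#3 replicate 1 or 2, or C#6 replicate 2 (-0.69 to -0.50). DNM1L, the dynamin-like protein of mitochondrial fission, fell by 0.43 in C#6 (SE 0.12, lost without parental replicate 3 or C#6 replicate 1, at -0.39 to -0.31). MED21, a Mediator subunit, fell by 0.45 in C#1 (SE 0.14), and DENND5B fell by 0.50 in C#2 (SE 0.14). Both calls were lost on leaving out arrays: for MED21 any 1 parental array or C#1 replicate 1 or 2 (-0.49 to -0.31), and for DENND5B parental replicate 1 or 3 or C#2 replicate 2 (-0.51 to -0.42). The MED21 call was also lost after renewed quantile normalization.

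In the fit of the deposited values, the higher calls near the members were in clones other than C#3. AMN1 rose by 0.85 in C#1 and 0.72 in C#2 (SE 0.17, highest adjusted p = 0.00902), and its changes were 0.10 in C#3 and 0.30 in C#6. STK38L, a kinase of the NDR family, rose by 0.54 in C#1 (SE 0.12, adjusted p = 0.00563). SOX5, a transcription factor, rose by 0.38 in C#1, 0.39 in C#2 and 0.33 in C#6 (SE 0.11), and its change in C#3 was -0.29. The SOX5 means of 3.50 in parental cells and 3.20 in C#3 were below the filter level, which was 3.56 to 3.62 over the arrays, and those of the other clones were 3.83 to 3.88, so this gene was close to background throughout. Each SOX5 call was lost without parental replicate 1 or 3 and without some arrays of the clone, at 0.28 to 0.38, and the C#6 call also after renewed quantile normalization and with arrays centred on their median. KLHL42, an adaptor of a ubiquitin ligase, rose by 0.44 in C#6 (SE 0.14, lost without any 1 parental array or C#6 replicate 2 or 3, at 0.34 to 0.47). Its 3 probe sets disagreed in C#6, at 0.44 for the brightest and -0.67 and 0.32 for the others. By the F test among the 4 clones, 22.5% of all genes differed, and so did 9 of the 30 flanking genes (30.0%). Those 9 were CAPRIN2, PKP2, RASSF8, DNM1L, DENND5B, AMN1, STK38L, SOX5 and ETFRF1, which was called in no clone against parental.

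Along the whole of chromosome 12, with 615 measured genes, FAR2 and TMTC1 were the only genes with a change at or below -2 in C#3, and also the only ones in C#6. In C#1 and C#2 there were 0 such genes on the chromosome. Of the 615 genes, 12.7% were called lower and 5.53% higher in C#3, beside 11.0% and 6.22% of all genes. In C#6, 26.0% were called lower and 2.6% higher, beside 14.7% and 7.73% of all genes. C#1 had 94 lower (15.3%) and 28 higher (4.55%), beside 11.2% and 6.03% of all genes. C#2 had 92 lower and 28 higher of the same 615, beside 11.5% and 5.47% of all genes. The share called lower on the chromosome was thus above that of all genes in C#1 and C#2 too. The median change of the chromosome was -0.02 in C#3 and -0.13 in C#6, against 0.00 and -0.02 over all genes. Cut into 31 blocks of 20 measured genes or fewer, the block medians ran from -0.30 to 0.20 in C#3 and from -0.37 to 0.05 in C#6. The block that holds the members, from MANSC4 to CPNE8, had a median of 0.01 in C#3 and 0.03 in C#6 without them.

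**Figure D3:**
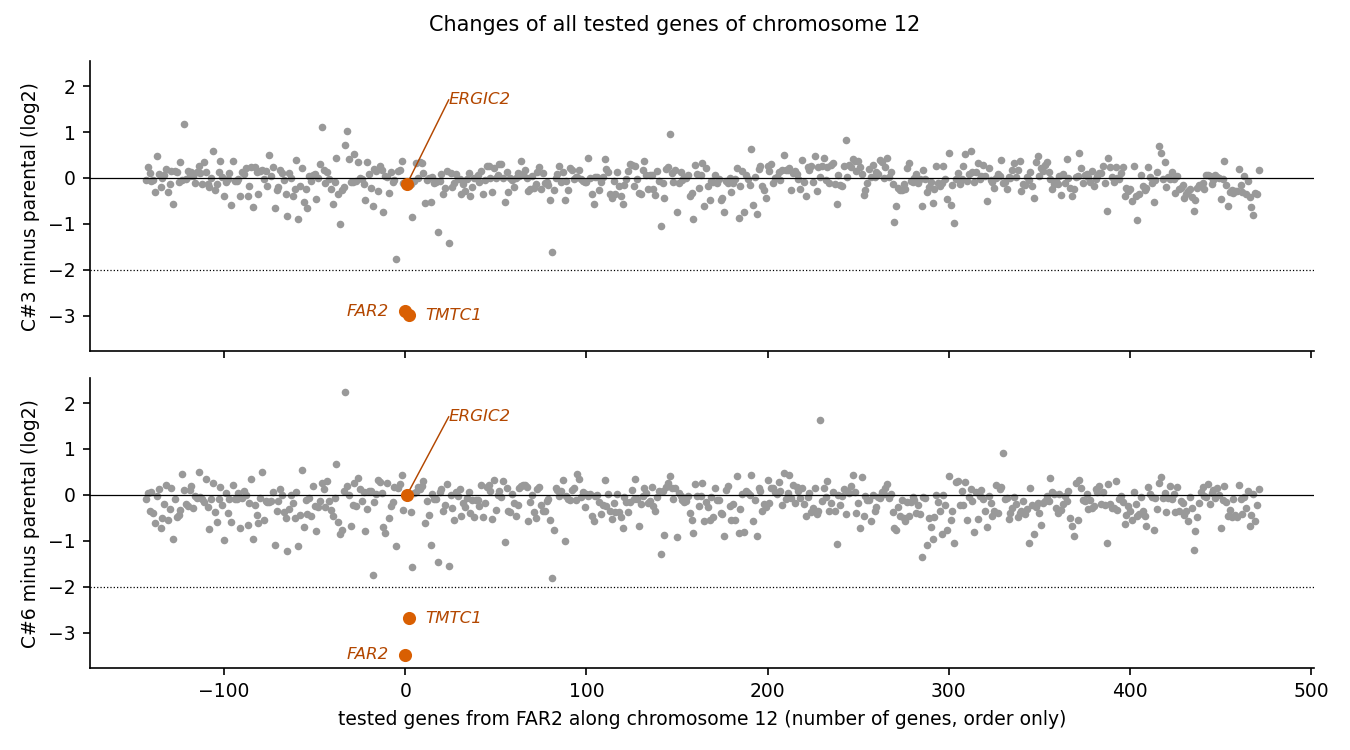
Log2 change against parental of the 615 measured genes of chromosome 12 in C#3 (top) and C#6 (bottom), in gene order counted from FAR2; the dotted line marks a change of -2. FAR2 and TMTC1 lie below that line in both clones and no other gene does, while ERGIC2 lies near 0.

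The paralogs of the members lie outside this stretch, and some of them changed in C#3 and C#6. FAR1, the other fatty acyl-CoA reductase, was lower in both of these clones. It read 9.38, 9.43 and 9.49 in parental cells, 9.15, 9.42 and 9.59 in C#1, 8.89, 9.24 and 9.21 in C#2, 9.06, 9.02 and 8.69 in C#3, and 8.76, 8.79 and 8.74 in C#6. The C#3 and C#6 arrays were all below the parental ones. FAR1 fell by 0.51 in C#3 (SE 0.13, adjusted p = 0.0126) and fell by 0.67 in C#6 (adjusted p = 0.00133), while its changes were -0.04 in C#1 and -0.32 in C#2 (adjusted p = 0.872 and 0.101). The C#3 call was lost without parental replicate 3 or C#3 replicate 3, at -0.48 to -0.39. In these clones both reductase genes were thus lower, FAR1 by far the less.

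Of the TMTC family, TMTC2 and TMTC4 were called higher in C#3 and C#6. TMTC2 read 5.24, 5.17 and 5.10 in parental cells, 5.58, 5.65 and 5.54 in C#3, and 5.78, 5.49 and 5.57 in C#6. It rose by 0.42 in C#3 (SE 0.13, adjusted p = 0.0373) and 0.44 in C#6 (adjusted p = 0.0227), and its changes in C#1 and C#2 were within 0.01 of 0. TMTC4 read 8.97, 9.05 and 8.95 in parental cells, 9.31, 9.30 and 9.38 in C#3, and 9.25, 9.32 and 9.34 in C#6. It rose by 0.34 in C#3 (SE 0.09, adjusted p = 0.0152) and 0.31 in C#6 (adjusted p = 0.0179), with 0.05 and 0.04 in C#1 and C#2. For both genes the arrays of C#3 and C#6 lay above all parental arrays and overlapped each other, and the calls are near the threshold. That of TMTC2 in C#3 was lost without any 1 of the 6 arrays compared (0.38 to 0.45) and with arrays centred on their median, and in C#6 without parental replicate 2 or 3 or C#6 replicate 1 (0.36 to 0.44). That of TMTC4 was lost in C#3 without parental replicate 1 or 3 or C#3 replicate 3 (0.31 to 0.33) and in C#6 without parental replicate 1 or 3 or C#6 replicate 2 or 3 (0.29 to 0.30). TMTC3 was called in no clone against parental, with changes of 0.35, 0.27, 0.38 and -0.17 (SE 0.13).

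ERGIC1 and ERGIC3, the partners of ERGIC2, changed little. ERGIC1 read 7.59, 7.49 and 7.63 in parental cells and 7.24, 7.36 and 7.26 in C#6, a fall of 0.29 (SE 0.10, adjusted p = 0.0427). That call was lost without any 1 parental array, any 1 C#6 array or C#1 replicate 2 (-0.33 to -0.26) and after renewed quantile normalization. Its changes were -0.01, -0.06 and -0.12 in C#1, C#2 and C#3. ERGIC3 changed by -0.12, -0.19, -0.06 and -0.08 and was called in no clone.

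**Figure D4:**
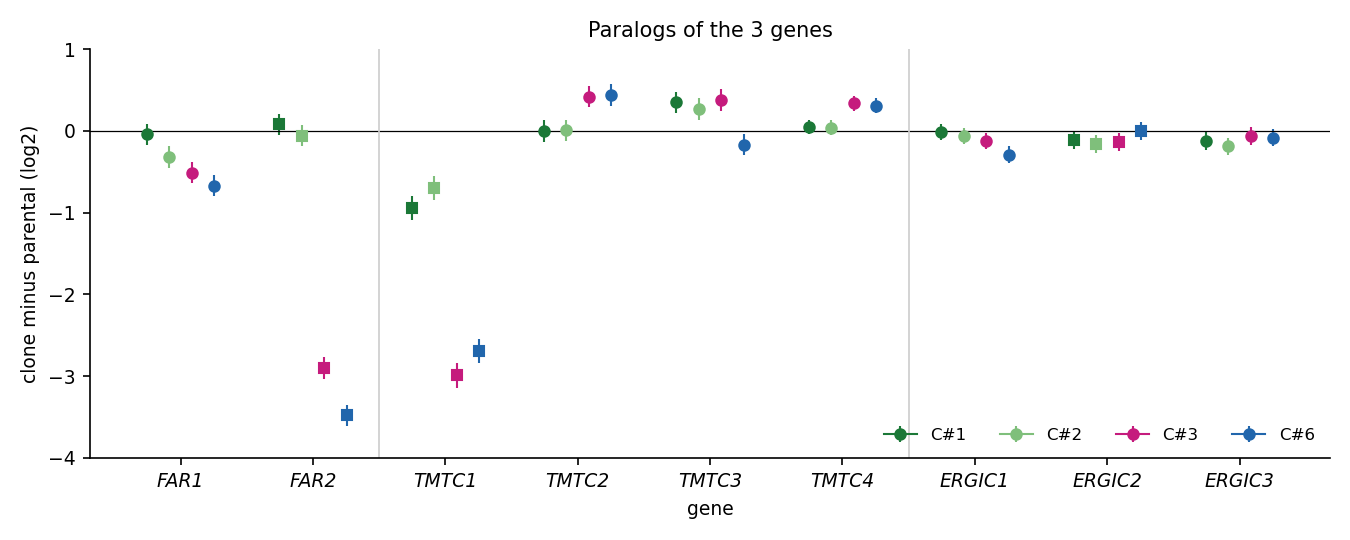
Log2 change against parental with its SE in the 4 clones (colours), for FAR2 and FAR1, for the TMTC family, and for ERGIC2 with ERGIC1 and ERGIC3; squares are FAR2, TMTC1 and ERGIC2, circles their paralogs. In C#3 and C#6, FAR1 changed by -0.51 and -0.67 beside -2.90 and -3.48 for FAR2, and TMTC2 and TMTC4 by 0.31 to 0.44 beside -2.99 and -2.69 for TMTC1.

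The wider pathway of FAR2 was taken from a list of 32 genes for fatty alcohols, wax esters, ether lipids and peroxisome import, of which 19 were measured above the filter. Called genes went in both directions: 2 lower and 6 higher in C#1, 3 and 3 in C#2, 4 and 2 in C#3, and 3 and 4 in C#6. The lower shares were 10.5%, 15.8%, 21.1% and 15.8%, and the higher shares 31.6%, 15.8%, 10.5% and 21.1%. Over all genes the lower shares were 11.2%, 11.5%, 11.0% and 14.7%, and the higher shares 6.03%, 5.47%, 6.22% and 7.73%. The median changes were 0.06, 0.12, -0.04 and -0.07. PEX7, the receptor that brings the ether lipid enzyme AGPS into peroxisomes, rose by 0.91 in C#1, 0.88 in C#2 and 0.92 in C#6 (SE 0.13, highest adjusted p = 0.000314), with 0.05 in C#3. AGPS, which uses fatty alcohols to form the ether bond, rose by 0.74 in C#1 and 0.92 in C#6 (SE 0.15), with 0.46 in C#2 (adjusted p = 0.0523) and 0.24 in C#3. ACSL4, an acyl-CoA synthetase for polyunsaturated fatty acids, fell in each clone, with changes of -1.09, -1.17, -0.95 and -0.49 (SE 0.13), and the last call was lost without C#6 replicate 3 (-0.41). Its means of 3.41, 3.33 and 3.55 in C#1, C#2 and C#3 were below the filter level, so the size of these 3 changes is uncertain. DGAT2, an acyltransferase of triglyceride synthesis, rose by 0.93 in C#2 (SE 0.14, adjusted p = 0.000314) and by 0.46 in C#1, where the call was lost without parental replicate 2 or 3 or C#1 replicate 1 or 2 (0.36 to 0.45). By the F test, 9 of the 19 genes (47.4%) differed among the clones, beside 22.5% of all genes.

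The list of O-mannosylation, with the other TMTC genes and the classical pathway, held 27 genes, 16 of them measured. The counts were 2 lower and 2 higher in C#1, 3 and 3 in C#2, 2 and 3 in C#3, and 2 and 5 in C#6. As shares, 12.5%, 18.8%, 12.5% and 12.5% were lower and 12.5%, 18.8%, 18.8% and 31.2% higher. Over all genes, 11.0% to 14.7% were lower and 5.47% to 7.73% higher. The median changes were 0.01, 0.01, 0.17 and -0.03. LARGE2, which extends the sugar chain of dystroglycan, fell in each clone, with changes of -1.15, -1.11, -0.79 and -1.23 (SE 0.15, highest adjusted p = 0.00153 in C#3). POMK, the kinase of O-mannosyl sugars, rose by 0.65, 0.67, 0.76 and 0.84 (SE 0.11, highest adjusted p = 0.000611). POMT1, a transferase of the classical pathway, fell by 0.67 in C#1 and fell by 0.61 in C#2 (SE 0.13, highest adjusted p = 0.00472), while its changes were 0.04 in C#3 and -0.15 in C#6. SDF2L1, a protein of the endoplasmic reticulum, rose by 0.59 in C#6 (SE 0.14) and by 0.47 in C#2. The C#2 call was lost without any 1 parental array or C#2 replicate 2 or 3 (0.41 to 0.51). By the F test, 4 of the 16 differed among the clones, beside 22.5% of all genes.

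Cadherins are the proteins that TMTC enzymes modify, and 18 of the 41 listed genes of that superfamily were measured. The counts were 2 lower and 3 higher in C#1, 2 and 2 in C#2, 3 and 3 in C#3, and 4 and 2 in C#6, with median changes of 0.07, 0.06, 0.06 and -0.06. As shares, 11.1%, 11.1%, 16.7% and 22.2% were lower and 16.7%, 11.1%, 16.7% and 11.1% higher. Over all genes, 11.0% to 14.7% were lower and 5.47% to 7.73% higher. DSG2, the desmosomal cadherin desmoglein 2, read 7.96, 7.89 and 7.95 in parental cells, 7.12, 7.23 and 7.06 in C#3, and 5.57, 6.16 and 5.78 in C#6. It fell by 0.79 in C#3 (SE 0.15, adjusted p = 0.00199) and fell by 2.09 in C#6 (adjusted p = 1.32e-07), and its changes in C#1 and C#2 were -0.03 and 0.17. CLSTN2, a calsyntenin, fell in each clone, with changes of -0.76, -0.78, -0.70 and -0.66 (SE 0.17, highest adjusted p = 0.0086). Its clone means of 3.84, 3.82, 3.89 and 3.93 were close to the filter level of 3.56 to 3.62, so the size of these changes is uncertain. PCDH1, a protocadherin, rose by 0.80 in C#3 (SE 0.15, adjusted p = 0.00202). FAT1, an atypical cadherin, rose by 0.66 in C#6 (SE 0.14) and by 0.44 in C#1, a call lost without any 1 parental array or C#1 replicate 2 or 3 (0.33 to 0.48) and with arrays centred on their median. By the F test, 3 of the 18 (16.7%) differed among the clones, beside 22.5% of all genes.

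The early secretory pathway, in which ERGIC2 works, was represented by 28 measured genes of 53 listed. The counts were 3 lower and 3 higher in C#1, 5 and 2 in C#2, 2 and 3 in C#3, and 4 and 6 in C#6, with medians between -0.01 and 0.06. As shares, 10.7%, 17.9%, 7.14% and 14.3% were lower and 10.7%, 7.14%, 10.7% and 21.4% higher. Over all genes, 11.0% to 14.7% were lower and 5.47% to 7.73% higher. KDELR1, the receptor that returns proteins to the endoplasmic reticulum, fell in each clone, with changes of -0.66, -0.79, -0.84 and -0.65 (SE 0.13, highest adjusted p = 0.00229). TFG, a protein of the exit sites of the endoplasmic reticulum, fell in each clone, with changes of -0.62, -0.51, -0.36 and -0.46 (SE 0.09), and its C#3 call was lost without parental replicate 2 or 3 or C#3 replicate 1 (-0.34 to -0.33). TMED7, a cargo receptor, rose by 0.59 in C#3 (SE 0.10, adjusted p = 0.00102) and by 0.31 in C#6, a call lost without any 1 parental array, C#1 replicate 2 or C#6 replicate 1 or 3 (0.27 to 0.32). STX5, a fusion protein of the Golgi, fell by 0.48 in C#2 (SE 0.14, lost without any 1 parental array or C#2 replicate 2 or 3, at -0.49 to -0.35, and after renewed quantile normalization). At least 1 clone had a call for 14 of the 28 genes, beside 37.5% of all genes. The 14 became 6 without parental replicate 1 or 2 and 7 without parental replicate 3. By the F test, 7 of the 28 differed among the clones, beside 22.5% of all genes.

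The genes with the most similar pattern were found over all 12147 genes by the root mean square difference of the 5 group means, each gene centred on its own mean. For FAR2 the closest was TMTC1, at 0.613 log2 units, followed by RASSF2 (0.644, chromosome 20), CYSLTR1 (0.766, chromosome X), ASS1 (0.798, chromosome 9) and CFL2 (0.804, chromosome 14). For TMTC1 the closest was ASS1, the enzyme that makes argininosuccinate, at 0.322, followed by CYSLTR1, a leukotriene receptor (0.397), CFL2, a cofilin (0.404), CAMK1D (0.531, chromosome 10) and GLI3 (0.555, chromosome 7), and FAR2 was at rank 11. ERGIC2 was at rank 6982 from FAR2 and at rank 5689 from TMTC1. Its own closest genes, TMBIM1, AVPR2, HAPLN3, GPR89A and BMP1, were within 0.017, but the group means of ERGIC2 differ by no more than 0.16, so that this order lies within the replicate spread.

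The similar genes shared the low levels in C#3 and C#6 and not always the rest. ASS1 changed by -0.42, -0.37, -2.20 and -1.79 in the 4 clones, and CYSLTR1 by -0.06, 0.11, -2.0 and -1.55. The CYSLTR1 means of 3.03 in C#3 and 3.48 in C#6 were below the filter level, so its changes and its rank by likeness rest on values at background. CFL2 was also lower in C#1 and C#2, at -0.97 and -1.15, beside -2.19 in C#3 and -2.73 in C#6. RASSF2 ran the other way in C#1 and C#2, at 0.87 and 1.19, with -1.36 and -1.63 in C#3 and C#6. CAMK1D changed by -0.13, -0.01, -1.35 and -1.63, and GLI3 by -0.49, -0.54, -1.51 and -1.65. These genes lie on other chromosomes than the members and were chosen by this likeness, so their values are a description.

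**Figure D5:**
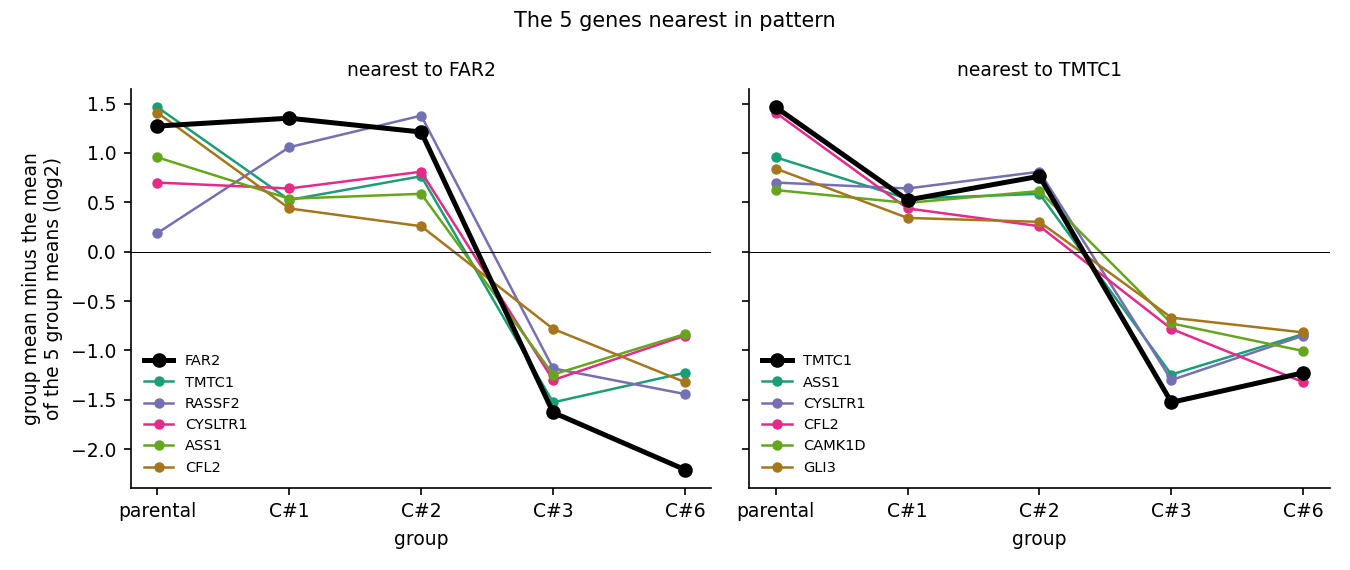
Group mean minus the mean of the 5 group means (log2) for FAR2 (left) and TMTC1 (right), in black, and for the 5 genes nearest to each in pattern, in colour; lines join groups for reading only. Every gene drawn is below its own mean in C#3 and C#6, and RASSF2 is higher in C#1 and C#2 than in parental cells, by 0.87 and 1.19.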

How the data were processed

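RNA of 15 samples was measured on Affymetrix gene arrays. The authors deposited 53617 probe sets per array as log2 values. The submitters' processing notes name the tools RMA, Transcriptome Analysis Console and Affymetrix Expression Console 1.4.1. No label or header states the build used for the probe sets. RMA makes the distributions of the arrays alike, which can remove a shift shared by most genes. Of the probe sets, 16098 (30.0%) had 1 gene symbol, 0 had several and 37519 had none here. All 16098 were matched to the RefSeq gene table of GRCh38.p14, which gave gene order only.

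A probe set was kept if it exceeded the 40th percentile of its array on 3 or more arrays. The probe set with the highest mean stood for a gene (779 symbols had several), leaving 12147 genes. Limma 3.58.1 in R 4.3.3 (lmFit, eBayes) was fitted to all 15 arrays, and every adjusted p is limma's with Benjamini-Hochberg adjustment. The steps were tested on simulated data. The members and lists were chosen with earlier results of these data known. The text names the members, their paralogs, every called flanking gene, up to 4 called genes per list with the largest change, and the 5 genes nearest in pattern to each member. Alternatives were no filter and a stricter one, renewed quantile normalization, median centring, a replicate block, leaving out each array, fitting only the arrays compared, weighting the arrays, trend with robust eBayes, averaging a gene's probe sets, and an adjusted p below 0.01. Precision is limited by how many arrays there are. Python 3.11.15 with matplotlib 3.10.9 drew the figures.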

Additional observations from a re-analysis of the deposited data

Results flagged for a closer look

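The genes below differed among the 4 clones by limma's F test over the clones, adjusted over all 12147 genes. The value after each is the highest minus the lowest clone mean on the log2 scale. Among the paralogs, FAR1 differed by 0.63 (adjusted p = 0.0091) with C#1 highest and C#6 lowest, TMTC3 by 0.55 (0.0115) and TMTC2 by 0.45 (0.0187). TMTC4 differed by 0.30 (0.0226), with C#3 highest and C#2 lowest. For TMTC3, C#3 was highest and C#6 lowest, although no clone was called against parental.

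Among the flanking genes, RASSF8 differed by 0.88 (adjusted p = 0.00101) and DENND5B by 0.85 (0.000792), both highest in C#3. AMN1 differed by 0.75 (0.0116), SOX5 by 0.68 (0.000422) and STK38L by 0.59 (0.0118), all lowest in C#3. The SOX5 level in C#3 was below the filter level. PKP2 differed by 0.75 (0.000773), CAPRIN2 by 0.72 (0.0292) and DNM1L by 0.44 (0.0438), all lowest in C#6.

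Among the named genes of the lists, the desmosomal cadherin DSG2 differed by 2.27 (adjusted p = 1.48e-07), with C#2 highest and C#6 lowest. DGAT2 differed by 1.17 (8.89e-05), PEX7 by 0.87 (0.000243) and AGPS by 0.68 (0.0148), all lowest in C#3. POMT1 differed by 0.71 (0.00156) and PCDH1 by 0.61 (0.0206), both highest in C#3. ACSL4 differed by 0.68 (0.00328), with C#6 highest and C#2 lowest, and its levels in C#1, C#2 and C#3 were below the filter level of 3.56 to 3.62.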

How the results depend on the processing

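The changes of FAR2, TMTC1 and ERGIC2 moved by less than 1 residual SD (0.156, 0.207 and 0.128) in all 180 values with 1 array left out and in all 108 values under the other settings. With 1 array left out, FAR2 ranged from -3.04 to -2.82 in C#3 and from -3.55 to -3.42 in C#6, and TMTC1 from -3.17 to -2.85 and from -2.82 to -2.55. Of the counts of flanking genes and list genes called, 124 of 135 stayed within 1.5 times with an array left out and 80 of 90 under other settings. Of the counts split by direction, those over all genes included, 612 of 720 and 406 of 480 did. At an adjusted p below 0.01, the flanking genes called were 5, 3, 3 and 4 in the 4 clones in order of their number, and 4 by the F test among the clones. At that threshold 4 genes of the O-mannosylation list and 5 of the early secretory list were called in at least 1 clone. Calls over all genes also fell, from 2092, 2058, 2090 and 2724 to 1051, 1079, 1018 and 1556. The share of all genes called there by the F test or in at least 1 clone was not counted. Array weights gave 10 flanking calls in C#2 and 8 in C#3. Calls over all genes rose with these weights too, from 2058 to 2542 in C#2 and from 2090 to 2839 in C#3. Leaving out 1 array gave 1229 to 2241 calls over all genes in C#1 and 1265 to 2224 in C#2. In C#3 it gave 1275 to 2243, and in C#6 1889 to 2819. With an array left out, the flanking calls ranged from 5 to 10 in C#1, 3 to 9 in C#2, 3 to 6 in C#3 and 5 to 11 in C#6, and the early secretory list from 6 to 14. The change of KLHL42 in C#6 reversed to -0.12 with the mean of the probe sets that passed the filter, which adds a dimmer probe set with a change of -0.67. The cause of the other shifts was not tested.

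With the replicate number as a block (replicate block), 10 flanking genes were called in C#2, against 6 without it, and the call of ERGIC1 in C#6 was lost. Calls over all genes went from 2092 to 2315 in C#1 and from 2058 to 2314 in C#2. In C#3 they went from 2090 to 2298 and in C#6 from 2724 to 2895. The main fit did not take the numbers to pair the arrays. Deviations of same-numbered arrays correlated at -0.129 to 0.462, above 0.1 in 10 of 30 pairs. For arrays of different numbers the range was -0.384 to 0.231. In 28 of 60 cases an array correlated best with its own number among the 3 arrays of another group. Whether same-numbered arrays share an effect was not tested.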
